A study of Arabidopsis thaliana with 11 samples.

Results

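The genes described here are 39 Arabidopsis thaliana loci that make, conjugate, perceive, relay or break down the hormone jasmonate, out of 32627 loci on the array. They were chosen by name and known role, with earlier results of these data known. They comprise the 12 JAZ repressors and their adaptor NINJA, 12 synthesis genes, JAR1 and JMT, and the receptor gene COI1. The others are the activators MYC2, MYC3 and MYC4, 6 turnover genes, and the storage protein genes VSP1 and VSP2. All 39 were on the array, and where a locus had several array features (sets of 3 or 4 probes reported as 1 value), the brightest by mean intensity over all arrays stood for it. RNA came from hypocotyls, the embryonic stems of seedlings, of accession Columbia that had grown in darkness and were 96 h old. Seeds of both groups had been kept 3 days at 4 °C in the dark, exposed to white light at 20 °C for 6 h and left in the dark for 4 days. The 5 arrays labelled atpme3-1 carry replicate numbers 1, 2, 3, 5 and 6, and the 6 wild-type arrays carry 1 to 6. Each replicate was a separate pool of about 300 hypocotyls. Per the labels, atpme3-1 has lost the function of PME3, a pectin methylesterase of the cell wall, and a replicate 4 of it is not analysed here.

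Jasmonate is made from linolenic acid, which is released and oxidised in the plastid by lipases, 13-lipoxygenases (LOX), allene oxide synthase (AOS) and allene oxide cyclases (AOC), and shortened in the peroxisome after reduction by OPR3. Joined to isoleucine by JAR1, it binds the F-box protein COI1 together with a JAZ protein, the JAZ protein is degraded, and the MYC transcription factors it held are freed. MYC factors switch on JAZ genes, synthesis genes and turnover genes alike, so that many of these transcripts are known to rise soon after wounding or jasmonate treatment, and the pathway is known for restraining growth.

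The PME3 signal itself was higher in labelled mutant, at a log2 intensity of 14.39 to 14.44 against 13.69 to 13.86 in wild type. Its fold change (labelled mutant minus wild type, log2) was 0.61 ± 0.040 (moderated SE, limma adjusted p = 4.91e-07). Where its probes lie relative to the disrupted part of the gene is not known here, so the value does not check the label, and the group is called labelled mutant throughout. The labels name 1 mutant line. Correlations between arrays were 0.985 to 0.998 within a group and 0.966 to 0.982 across groups. Deviations from the wild-type mean correlated at 0.577 between replicates 2 and 5 and at 0.693 between 3 and 6. Other wild-type pairs had -0.81 to 0.181. The main limma fit treats all arrays as independent, so its p-values do not allow for such likeness. In bulk RNA, fewer cells of a type and less RNA per cell cannot be told apart. Of marker lists read as values, 10 of 12 seed genes were higher and 0 lower, with a mean log2 level per array of 1.21 to 1.69 in labelled mutant and -0.35 to 0.21 in wild type, relative to the wild-type mean. All 7 root hair genes were lower, at -3.31 to -1.60 in labelled mutant and -0.45 to 0.62 in wild type. Of 7 seed coat and endosperm genes, 3 were higher and 1 lower, at -0.11 to 0.18 in labelled mutant and -0.03 to 0.06 in wild type. Their part in the jasmonate values was not tested. Of 7 genes of dark-grown hypocotyls, 2 were higher and 1 lower (summed intensity 119830 to 138550 in labelled mutant and 105777 to 134098 in wild type). The summed intensity of the root hair genes was 4070 to 17752 in labelled mutant and 30644 to 58926 in wild type, that of the seed genes 143220 to 172209 in labelled mutant and 65690 to 89087 in wild type, and no marker was at 0.

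Among the genes with more transcript in labelled mutant hypocotyls were 6 of the 12 JAZ repressors and 4 of the 12 synthesis genes. At an adjusted p under 0.05 (limma, Benjamini-Hochberg over all 37118 features), 15 of the 39 genes rose and 3 fell. Over all loci 19.4% rose and 13.1% fell, and 32.5% passed in either direction, against 46.2% of the 39. The median log2 fold change of the 39 was 0.16, beside 0.05 over all loci. Above 0 were 31 of the 39, and 19793 of all 32627 loci. All labelled mutant arrays lay above all wild-type arrays for 9 of the 39, where 10.5% of all loci do so, and all lay below for 2, where 9.12% do. With a fold of at least 1.5 required as well, 4 genes rose (JAZ5, JAZ10, LOX3 and LOX4, where 3.58% of loci did) and 0 fell (5.00% of loci). At an unadjusted limma p under 0.05, 20 were higher and 3 lower, where 27.6% of all loci were higher and 16.9% lower. The mean over the 39 genes on an array, relative to the wild-type mean, was 0.14 to 0.29 in labelled mutant and -0.13 to 0.12 in wild type.

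**Figure D1:**
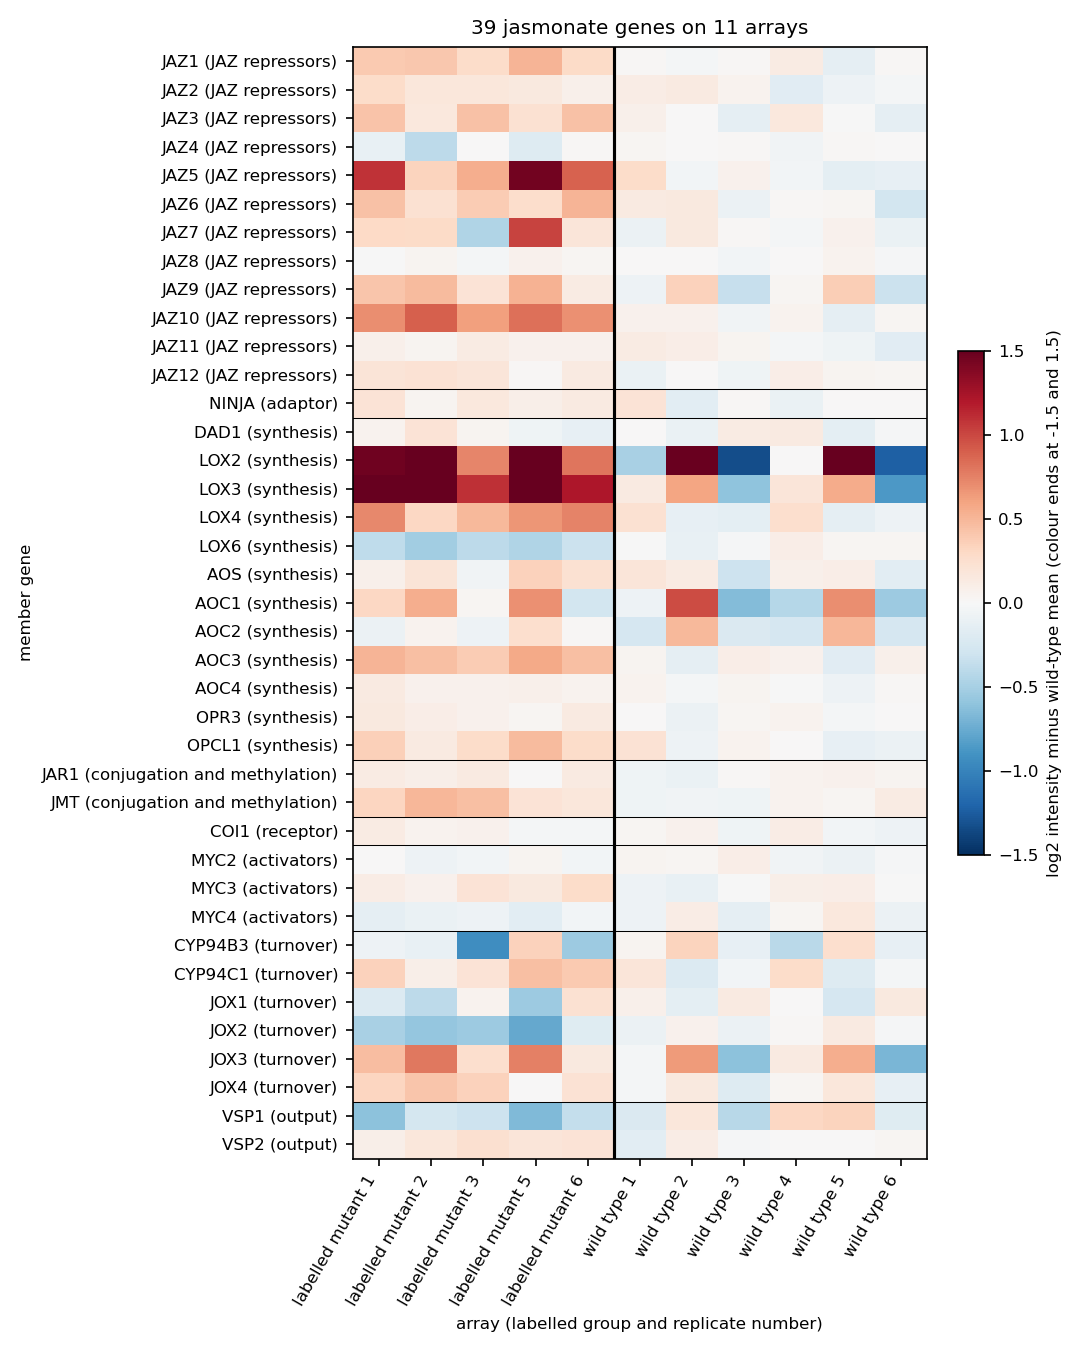
Log2 intensity of the 39 jasmonate genes (rows, by role) on the 5 labelled mutant arrays and, right of the black line, the 6 wild-type arrays, each minus the gene's wild-type mean; red is higher and blue lower, and the colour ends at -1.5 and 1.5. JAZ1, JAZ3, JAZ5, JAZ6, JAZ10, LOX3, LOX4 and AOC3 are red on all labelled mutant arrays, and LOX6 and JOX2 blue, while LOX2, AOC1 and JOX3 differ as much among the wild-type arrays.

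At the start of the pathway, the 13-lipoxygenase genes moved in opposite directions: LOX3 and LOX4 rose and LOX6 fell. LOX3 (AT1G17420) had log2 intensities of 10.64, 10.42, 10, 10.76 and 10.12 on labelled mutant arrays 1, 2, 3, 5 and 6, against a lowest of 8.05, a median of 9.07 and a highest of 9.50 in wild type. The groups did not overlap, and the fold change was 1.48 ± 0.27 on the log2 scale, or 2.79-fold (adjusted p = 0.00168). That was the largest fold change of the 39 genes with all arrays in the fit. Without wild-type replicate 5 it was 1.59, below 1.62 for LOX2, without replicate 2 both stood at 1.60, and without both arrays LOX3 was 1.76 and LOX2 2.06. LOX4 (AT1G72520), its close relative, stood at 12.55, 12.14, 12.32, 12.49 and 12.57 in labelled mutant, against 11.68, 11.73 and 12.08 (lowest, median, highest) in wild type. It rose by 0.58 ± 0.10 (adjusted p = 0.00144), again with no overlap. LOX6 (AT1G67560), a lipoxygenase known for the fast jasmonate burst after wounding and for its action in roots and xylem cells, stood at 13.68, 13.54, 13.67, 13.61 and 13.74 in labelled mutant, against 13.95, 14.07 and 14.16 in wild type. It fell by 0.41 on the log2 scale, with an SE of 0.05 (adjusted p = 8.05e-05), and every labelled mutant array was below every wild-type array.

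LOX2 (AT3G45140), the lipoxygenase behind most jasmonate of wounded leaves, did not pass the test, and its wild-type arrays spread over 2.92 on the log2 scale. It lies outside the rule for full values and was picked with its values in view: 12.01, 12.15, 11.28, 12.47 and 11.35 on the labelled mutant arrays, against 10.06, 12.03, 9.22, 10.55, 12.13 and 9.32 on wild-type arrays 1 to 6. Wild-type replicates 2 and 5 reached the labelled mutant level, and the other 4 lay below all labelled mutant arrays. The fold change was 1.30 ± 0.54 (adjusted p = 0.0876). It passed without wild-type replicate 2 (1.60, adjusted p = 0.0365) or replicate 5 (1.62, adjusted p = 0.0324), and reached 2.06 without both. Without wild-type replicates 3 and 6 it was 0.66 (adjusted p = 0.284).

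Of the 4 allene oxide cyclase genes, AOC3 alone rose. AOC3 (AT3G25780) had 12.70, 12.64, 12.57, 12.76 and 12.64 in labelled mutant, against 12.02, 12.25 and 12.29 in wild type, without overlap. Its fold change was 0.48 ± 0.061 (adjusted p = 1.32e-04). AOC1 had a fold change of 0.26 ± 0.31, AOC2 0.02 ± 0.16 and AOC4 0.08 ± 0.038, none past the threshold. AOC1 and AOC2 shared the wild-type pattern of LOX2, with replicates 2 and 5 highest. Without those arrays both passed, at 0.68 (adjusted p = 0.0294) for AOC1 and 0.27 (adjusted p = 0.0211) for AOC2, and without wild-type replicates 3 and 6 they stood at -0.04 and -0.10. AOC1, AOC2 and AOC3 have neighbouring locus numbers and similar coding sequences, and signal shared between their probes could not be checked.

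**Figure D2:**
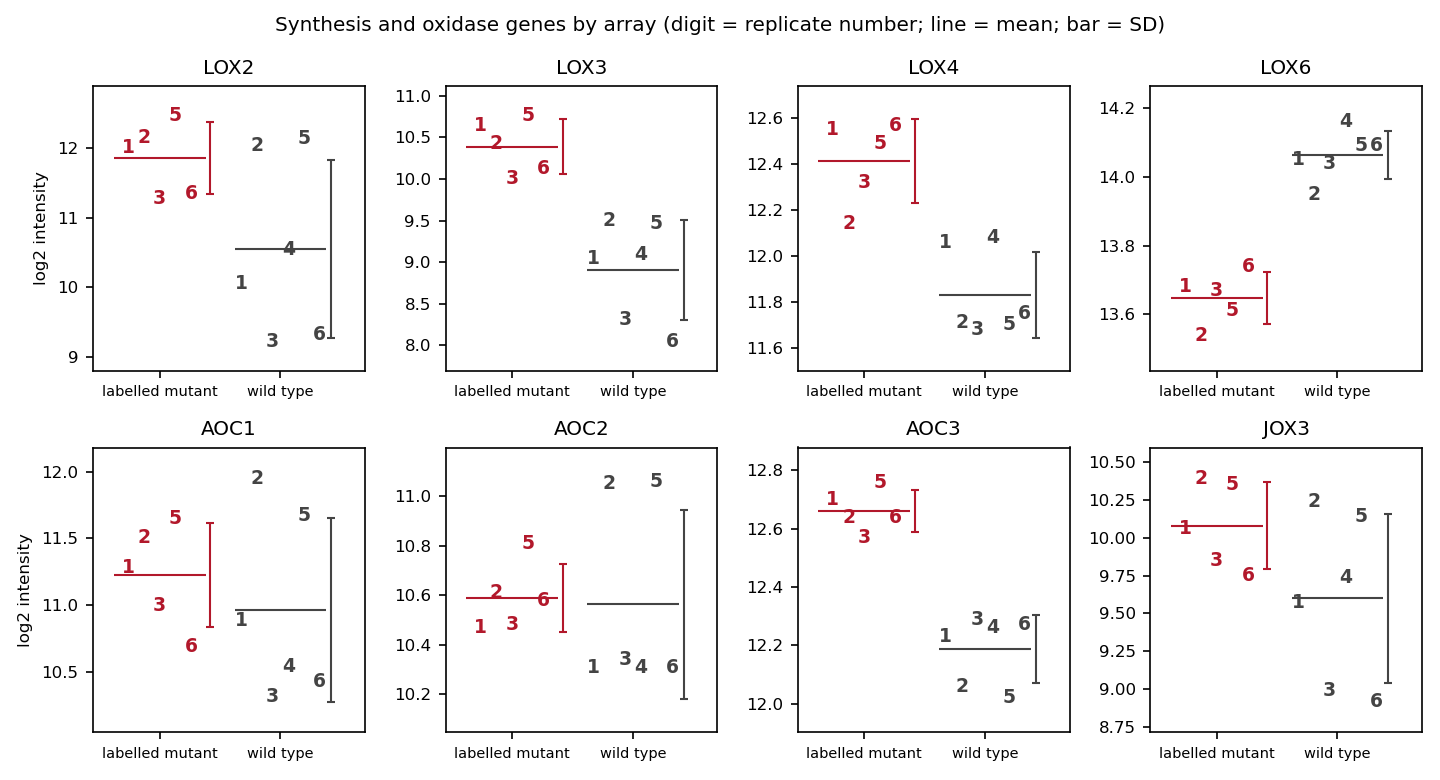
Log2 intensity of 8 genes by array, labelled mutant left (5 arrays) and wild type right (6 arrays); each digit is an array at its replicate number, lines are means, bars 1 SD, and each panel has its own axis. LOX3, LOX4, LOX6 and AOC3 separate the groups, whereas in LOX2, AOC1, AOC2 and JOX3 wild-type replicates 2 and 5 stand beside or above the labelled mutant arrays.

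Of the other synthesis genes, OPCL1 passed the test and OPR3, AOS and DAD1 did not. OPCL1 (AT1G20510), a ligase that activates the precursor for chain shortening, had 13.04, 12.82, 12.96, 13.16 and 12.95 in labelled mutant, against 12.56, 12.64 and 12.90 in wild type. The groups overlapped by 1 labelled mutant array, and the gene rose by 0.31 ± 0.074 (adjusted p = 0.00846). A dimmer OPCL1 feature also rose, by 0.50 ± 0.13 (adjusted p = 0.0126). OPR3, the reductase of the peroxisome, had 0.10 ± 0.040 (adjusted p = 0.0762), and AOS 0.15 ± 0.099 (adjusted p = 0.25). DAD1, a lipase known from stamens, was among the dimmest 25% of features, where fold changes are compressed, with 0.02 ± 0.072. In all, 4 of the 12 synthesis genes rose and 1 fell, where 19.4% of all loci rose and 13.1% fell. Their median fold change was 0.21, beside 0.05 over all loci.

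JMT (AT1G19640), which makes volatile methyl jasmonate, stood at 8.43, 8.61, 8.56, 8.32 and 8.28 in labelled mutant, against 8.04, 8.10 and 8.23 in wild type. The groups did not overlap and JMT rose by 0.33 ± 0.067 (adjusted p = 0.00349), at a level in the dimmest 25% of features. JAR1, which makes the active isoleucine conjugate, had 0.10 ± 0.045 (adjusted p = 0.113). The receptor gene COI1 (AT2G39940) had 14.03, 13.96, 13.97, 13.88 and 13.88 in labelled mutant, against 13.83, 13.90 and 14.02 in wild type. Its groups overlapped widely, with a fold change of 0.03 ± 0.049 (adjusted p = 0.666; 95% interval -0.08 to 0.14).

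Of the 12 JAZ genes, whose proteins hold the MYC factors in check, 6 rose and 0 fell (limma; 8 and 0 at an unadjusted p under 0.05), with a median log2 fold change of 0.30. Over all loci 19.4% rose and 13.1% fell, or 27.6% and 16.9% unadjusted, with a median of 0.05. The JAZ counts and mean take the brightest feature of each gene. Of the 6, JAZ1 has a dimmer feature that fell (-0.58, limma adjusted p = 0.018), and JAZ12 missed the threshold in 9 of 11 fits without 1 array. The mean of the 12 was 0.20 to 0.41 on labelled mutant arrays and -0.09 to 0.08 on wild-type arrays, relative to the wild-type mean, so that these ranges did not meet. JAZ10 (AT5G13220), known for splice forms that resist degradation and damp the response, had 12.74, 12.94, 12.66, 12.87 and 12.72 in labelled mutant, against 11.90, 12.08 and 12.11 in wild type. It rose by 0.74 ± 0.061, or 1.68-fold, with the lowest adjusted p of the 39 genes (3.49e-06). JAZ5 (AT1G17380) had 10.33, 9.58, 9.79, 10.70 and 10.13 in labelled mutant, against 9.10, 9.21 and 9.53 in wild type. It rose by 0.86 ± 0.17, or 1.81-fold (adjusted p = 0.00309), and varied more among labelled mutant arrays than JAZ10 did.

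JAZ1, JAZ3 and JAZ6 rose by smaller amounts, each without overlap between the groups. JAZ1 (AT1G19180), an early and strongly hormone-responsive member, had 14.12, 14.14, 14, 14.24 and 14.02 in labelled mutant, against 13.59, 13.75 and 13.85 in wild type (0.37 ± 0.057, adjusted p = 5.61e-04). JAZ3 (AT3G17860), the repressor altered in the jai3-1 mutant, had 13.01, 12.74, 13.02, 12.81 and 13.02 in labelled mutant, against 12.44, 12.58 and 12.74 in wild type (0.35 ± 0.074, adjusted p = 0.00441). JAZ6 (AT1G72450) had 13.15, 12.94, 13.09, 12.97 and 13.22 in labelled mutant, against 12.44, 12.73 and 12.86 in wild type (0.37 ± 0.082, adjusted p = 0.00569). In JAZ3 the lowest labelled mutant array and the highest wild-type array were equal at 2 decimals.

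JAZ12 also passed, at 0.15 ± 0.050 (adjusted p = 0.0392), but missed the threshold in 9 of 11 fits that each omitted 1 array, at 0.13 to 0.18, and passed without labelled mutant replicate 5 or wild-type replicate 4. JAZ2 missed the threshold (0.17 ± 0.061, adjusted p = 0.0543) and passed at 0.19 without labelled mutant replicate 6 or wild-type replicate 1 or 2. It also passed with median centring, trended robust variance, array weights, the random replicate block or the dimmest 50% of features left out. JAZ9 missed it too (0.34 ± 0.14, adjusted p = 0.0861), and passed without wild-type replicate 2 (0.41) or 5 (0.42). JAZ7, often among the most strongly induced of the family, ranged from 9.01 to 10.47 on labelled mutant arrays, with a fold change of 0.26 ± 0.19. It passed at 0.44 without labelled mutant replicate 3. JAZ8, which lacks the usual degradation motif, was in the dimmest 25% of features (0.02 ± 0.035), and JAZ11 had 0.07 ± 0.054.

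JAZ4 had a negative fold change, -0.14 ± 0.069 (adjusted p = 0.14), with 11.81, 11.53, 11.93, 11.73 and 11.94 in labelled mutant, against 11.87, 11.93 and 11.95 in wild type. NINJA (AT4G28910), which links JAZ proteins to the TOPLESS corepressor, had 14.41, 14.25, 14.37, 14.30 and 14.34 in labelled mutant, against 14.05, 14.22 and 14.41 in wild type. It did not pass (0.13 ± 0.063, adjusted p = 0.13), except without wild-type replicate 1 (0.17, adjusted p = 0.0334).

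**Figure D3:**
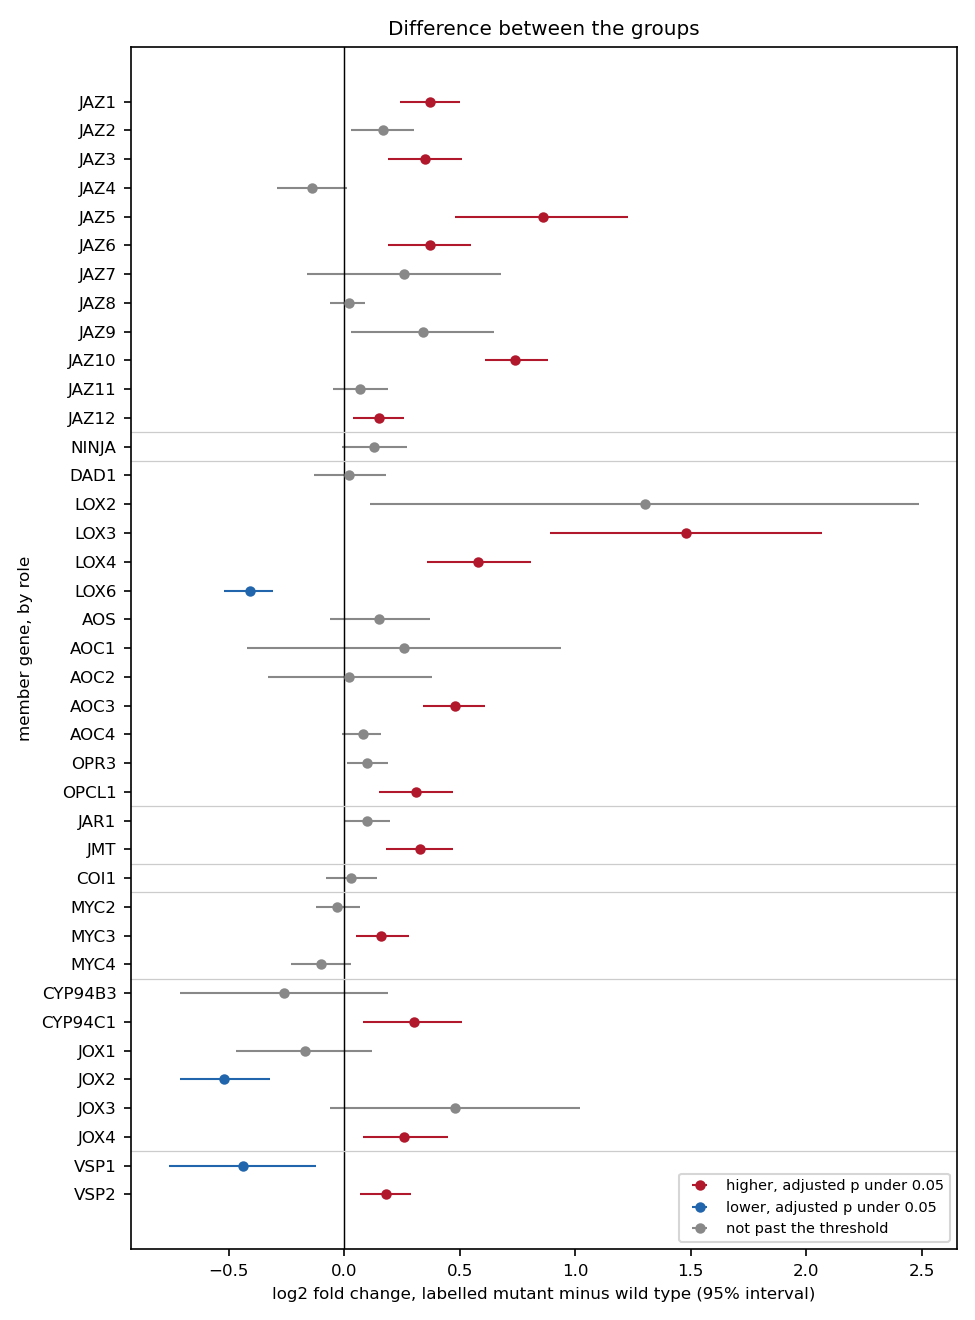
Log2 fold change (labelled mutant, 5 arrays, minus wild type, 6 arrays) of each of the 39 genes with its 95% interval from limma, ordered by role; red points rose, blue points fell and grey points did not pass an adjusted p under 0.05. Points right of 0 prevail among JAZ and synthesis genes, LOX3 lies farthest right at 1.48, and LOX2 has the widest interval.

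Several features of a locus were on the array for 9 of the 39 genes, and in JAZ1 they passed in opposite directions. The dimmer JAZ1 feature had 10.90, 10.80, 10.69, 11.47 and 10.78 in labelled mutant, against 11.12, 11.54 and 11.83 in wild type. It fell by 0.58 on the log2 scale, with an SE of 0.16 (adjusted p = 0.018), while the brighter one rose. Averaged, they gave -0.10, which did not pass, so that the JAZ1 direction holds for the brighter feature only. Which transcripts of JAZ1 each feature reports is not known here. In JAZ10, the features with fold changes of 0.45 ± 0.054 (adjusted p = 7.96e-05) and 0.95 ± 0.18 (adjusted p = 0.00243) also rose, and the dimmest had 0.15 ± 0.066 (adjusted p = 0.102). The other JAZ3 feature rose by 0.51 ± 0.095 (adjusted p = 0.00188). JAZ4 features also differed in sign, none past the threshold. Beside -0.14 for the brightest, they had -0.27 ± 0.10 (adjusted p = 0.0688) and, in the dimmest, 0.13 ± 0.063 (adjusted p = 0.144). Of the 3 OPR3 features, 1 passed, at 0.14 ± 0.039 (adjusted p = 0.0157).

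**Figure D4:**
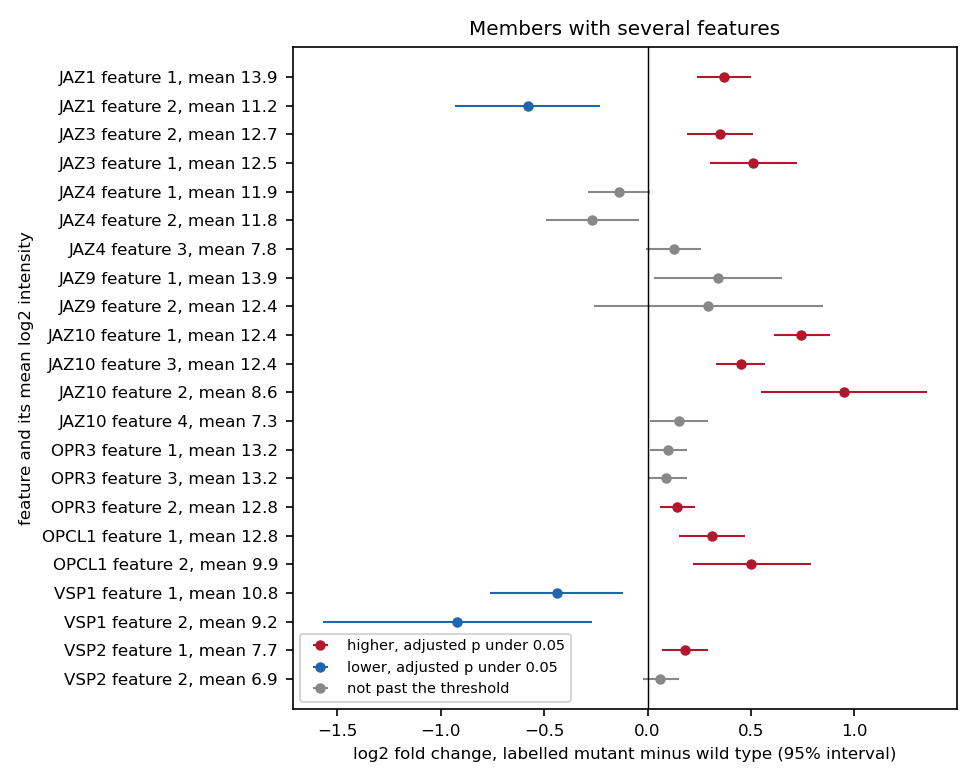
Log2 fold change (labelled mutant, 5 arrays, minus wild type, 6 arrays) with 95% interval of every feature of the 9 genes that have several, with the feature's mean log2 intensity beside its name. The JAZ1 features lie on opposite sides of 0, at 0.37 and -0.58, and the JAZ4 features also lie on both sides. The JAZ10, JAZ3, OPCL1 and VSP1 features lie on 1 side each.

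The activators moved little. MYC2, the master regulator of the family, had -0.03 ± 0.044 (adjusted p = 0.686; 95% interval -0.12 to 0.07). MYC3 (AT5G46760), which acts partly in place of MYC2, had 13.73, 13.68, 13.82, 13.77 and 13.90 in labelled mutant, against 13.51, 13.61 and 13.72 in wild type, and rose by 0.16 ± 0.054 (adjusted p = 0.0381). MYC3 missed the threshold in 8 of 11 fits that each omitted 1 array, at 0.14 to 0.19, and passed without labelled mutant replicate 2 or wild-type replicate 4 or 5. MYC4 (AT4G17880) had 12.98, 13.02, 13.04, 12.96 and 13.08 in labelled mutant, against 12.99, 13.09 and 13.28 in wild type (-0.10 ± 0.059, adjusted p = 0.202).

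Turnover genes moved both ways. JOX genes encode oxygenases that hydroxylate jasmonic acid and so remove it before conjugation. JOX2 (AT5G05600) had 12.43, 12.34, 12.38, 12.15 and 12.74 in labelled mutant, against 12.83, 12.92 and 13.06 in wild type. It fell by 0.52 on the log2 scale, with an SE of 0.09 (adjusted p = 0.00127), and the groups did not overlap. JOX4 (AT2G38240) had 8.40, 8.50, 8.42, 8.09 and 8.30 in labelled mutant, against 7.89, 8.08 and 8.25 in wild type. It rose by 0.26 ± 0.086 (adjusted p = 0.0355) in the dimmest 25% of features. JOX4 missed the threshold after a second quantile normalization (0.22, adjusted p = 0.0657) and in 7 of 11 fits that each omitted 1 array, at 0.22 to 0.33, and passed without labelled mutant replicate 5 or 6 or wild-type replicate 2 or 5.

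JOX3 (AT3G55970) had 10.06, 10.39, 9.85, 10.35 and 9.75 in labelled mutant, against 9.57, 10.24, 8.99, 9.74, 10.14 and 8.92 on wild-type arrays 1 to 6. Its fold change was 0.48 ± 0.25 (adjusted p = 0.156), and 0.78 (adjusted p = 0.0193) without wild-type replicates 2 and 5. JOX1 had -0.17 ± 0.13 (adjusted p = 0.341). The CYP94 enzymes oxidise the active isoleucine conjugate itself. CYP94C1 rose by 0.30 ± 0.098 (adjusted p = 0.0378), but missed the threshold in 8 of 11 fits that each omitted 1 array, at 0.26 to 0.35, and passed without labelled mutant replicate 2 or wild-type replicate 1 or 4. CYP94B3 had -0.26 ± 0.21 (adjusted p = 0.351).

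The output genes VSP1 and VSP2 encode vegetative storage proteins and are classic jasmonate markers of leaves. VSP1 (AT5G24780) had 10.42, 10.78, 10.73, 10.38 and 10.68 in labelled mutant, against 10.62, 11.03 and 11.37 in wild type, with some overlap. It fell by 0.44 on the log2 scale, with an SE of 0.14 (adjusted p = 0.0367), and its dimmer feature fell by 0.92, with an SE of 0.30 (adjusted p = 0.0343). VSP1 missed the threshold without labelled mutant replicate 1 or 5 or wild-type replicate 2, 4 or 5, at a lowest of -0.52 and a highest of -0.37 over all such fits. VSP2 (AT5G24770) had 7.75, 7.83, 7.90, 7.84 and 7.86 in labelled mutant, against 7.50, 7.67 and 7.77 in wild type, and rose by 0.18 ± 0.050 (adjusted p = 0.0173). It missed the threshold after a second quantile normalization (0.14, adjusted p = 0.0757), with arrays whose numbers lie 3 apart averaged (0.17, adjusted p = 0.10), and in its dimmer feature (0.06, adjusted p = 0.242). VSP2 was in the dimmest 25% of features, and the genes have adjacent loci and similar sequences, so shared signal could not be checked.

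Whether related genes changed unequally was asked by taking their log2 difference within each array, for 19 pairs. All 462 ways to split the arrays entered an exact two-sided permutation test, whose smallest p is 0.00216, with Benjamini-Hochberg adjustment over the 19 pairs. Like the main fit, the test treats arrays as independent, so its p-values do not allow for the likeness between wild-type arrays. In 6 pairs the difference between labelled mutant and wild type passed. JAZ3 gained 0.49 on JAZ4 and JOX4 gained 0.78 on JOX2 (exact permutation, adjusted p = 0.0206 each), and both passed in all 11 repeats without 1 array. MYC4 lost against MYC3 (-0.27) and VSP1 against VSP2 (-0.62), at the same adjusted exact p. Each of these passed in 10 of the 11 repeats and not without labelled mutant replicate 5 (adjusted p = 0.0603 for MYC4 and MYC3, 0.0679 for VSP1 and VSP2). JOX3 gained 1.00 on JOX2 (adjusted exact p = 0.0411) and JAZ5 gained 0.49 on JAZ6 (adjusted exact p = 0.0480). These passed in only 1 of the 11 repeats each, without labelled mutant replicate 6 for the JOX genes and replicate 2 for the JAZ genes. Over the repeats their differences were 0.86 to 1.16 and 0.32 to 0.59. Fewer splits raise the smallest exact p to 0.00476 without a labelled mutant array and 0.00794 without a wild-type array. The repeats are thus harder to pass whatever the values. LOX3 against LOX4 missed the threshold (0.89, adjusted exact p = 0.0588), as did AOC3 against AOC2 (0.45, adjusted exact p = 0.0759). JOX4 and VSP2 lie in the dimmest 25% of features, where differences are compressed, so the sizes of their pairs rest on little signal. A within-array difference shows unequal change and does not say which gene moved.

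**Figure D5:**
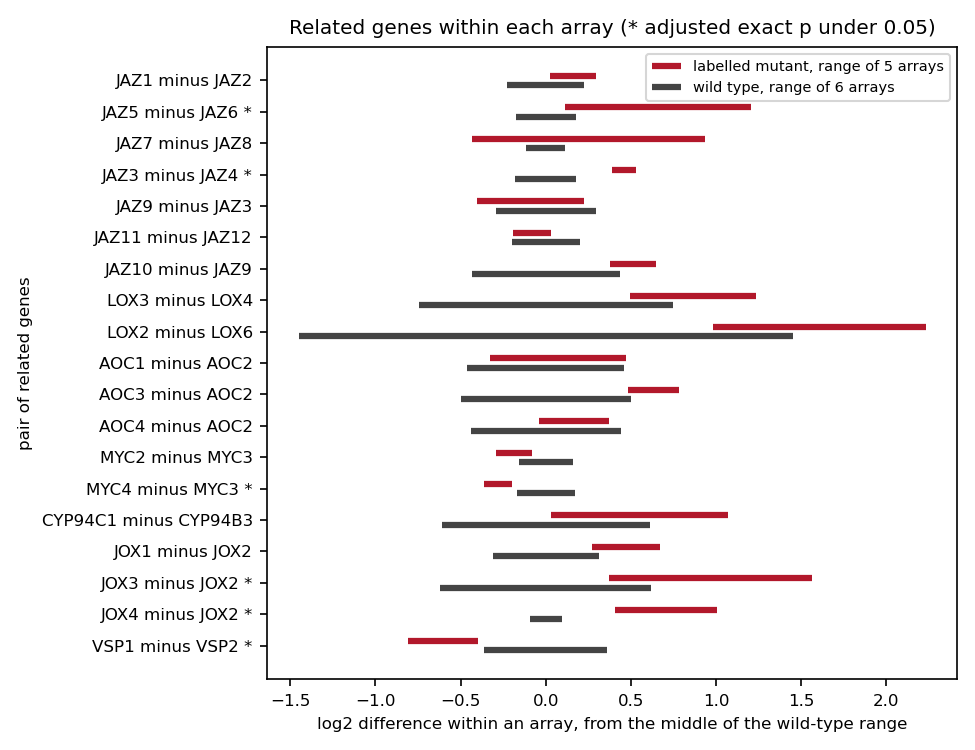
Range of the log2 difference between 2 related genes within an array, over the 5 labelled mutant arrays (red, upper bar) and the 6 wild-type arrays (grey, lower bar), shifted so that 0 is the middle of the wild-type range; an asterisk marks an adjusted exact permutation p under 0.05. The bars of JAZ3 and JAZ4, of JOX4 and JOX2, of MYC4 and MYC3 and of VSP1 and VSP2 do not overlap.

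The spread among wild-type arrays was shared by many of these genes. Wild-type replicates 2 and 5 were the highest of the 6 for 12 of the 39 genes (30.8%), where 11.8% of all loci show this order. For 8 of the 39 (20.5%), replicates 3 and 6 were also the lowest, against 5.16% of all loci. The opposite order, with replicates 2 and 5 lowest, held for 7 of the 39 (17.9%) and 16.3% of all loci. These orders were looked for with the earlier values of the arrays known. Ranges over 1 on the log2 scale occurred in 4 genes (LOX2, LOX3, AOC1 and JOX3), or 10.3%, beside 4.31% of all loci. The median wild-type range was 0.30 for the 39 and 0.32 for all loci. Marker lists also set wild-type replicates 2 and 5 apart. Relative to the wild-type mean, root hair genes averaged 0.62 and 0.59 on these arrays, against -0.45 to -0.16 on the other 4, and seed genes -0.29 and -0.35, against 0.14 to 0.21. The 11 green tissue genes averaged 0.20 and 0.35, against -0.20 to -0.04, and LHCB1.1, a light-harvesting protein gene picked with its values in view, had 11.50 and 11.42, against 8.73 to 9.65. The part of these markers in the spread of the jasmonate genes was not tested. Between the groups, 2 of the 11 green tissue genes were higher and 0 lower (limma; 2 and 1 at an unadjusted p under 0.05), and their mean was -0.11 to 0.07 in labelled mutant and -0.20 to 0.35 in wild type.

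On the labelled mutant side, an order chosen after the values were seen was replicate 5 highest, found in 15 of the 39 genes (38.5%) and 18.1% of all loci. For 8 genes, among them JAZ1, JAZ7, LOX2, LOX3, AOS and AOC3, replicate 3 was also the lowest (20.5%, beside 4.97% of all loci). In LOX2, LOX3, AOC1, JOX3 and JAZ9, picked with their values in view, replicates 3 and 6 stood lowest in both groups. Other genes with that wild-type order, such as MYC4 and JOX4, did not have it in labelled mutant.

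Of 39 further genes of the wider pathway, 5 rose (12.8%) and 7 fell (17.9%), beside 19.4% and 13.1% of all loci. Their median log2 fold change was 0.05, the same as over all loci at 2 decimals. ORA47, a jasmonate-responsive regulator of synthesis genes, had 11.04, 11.47, 10.30, 12.09 and 10.57 in labelled mutant, against 8.82, 9.43 and 9.89 in wild type. It rose by 1.71 ± 0.31 (adjusted p = 0.00165), and the groups did not overlap. The defensin gene PDF1.2 rose by 0.83 ± 0.11 (adjusted p = 2.43e-04), the cystine lyase gene CORI3 by 0.85 ± 0.14 (adjusted p = 9.41e-04) and the corepressor gene TPL by 0.18 ± 0.037 (adjusted p = 0.00416). Lower were the NAC factor gene ANAC055 (-0.56 ± 0.083, adjusted p = 4.02e-04), the 9-lipoxygenase gene LOX1 (-0.27 ± 0.038, adjusted p = 2.39e-04), the conjugate hydrolase gene IAR3 (-0.21 ± 0.040, adjusted p = 0.00215) and the beta-oxidation gene MFP2 (-0.22 ± 0.048, adjusted p = 0.00562). The 14 other genes listed under synthesis include the fatty acid desaturases and beta-oxidation genes. Of these 14, 0 rose and 4 fell (28.6%, limma), where 19.4% of all loci rose and 13.1% fell. At an unadjusted p under 0.05, 2 were higher and 6 lower, beside 27.6% and 16.9% of all loci. The 4 that fell were LOX1, OPR2, AIM1 and MFP2. LOX1 and OPR2, like LOX5 and OPR1 on the same list, are not among the synthesis steps described above.

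Since JAZ and LOX transcripts are known to rise within minutes of touch or wounding, 11 early touch and wound genes were read beside them. RRTF1 (1.65 ± 0.31, adjusted p = 0.00195), WRKY40 (0.99 ± 0.17, adjusted p = 0.00111), STZ (0.65 ± 0.088, adjusted p = 2.18e-04) and WRKY33 (0.31 ± 0.058, adjusted p = 0.0021) were higher. CBF1 (-1.16 ± 0.24, adjusted p = 0.00396), CBF2 (-1.13 ± 0.15, adjusted p = 1.90e-04) and CBF3 (-1.70 ± 0.20, adjusted p = 7.67e-05) were lower. The other 4, among them the touch genes TCH2, TCH3 and TCH4, did not pass. Of the 11, 36.4% were thus higher and 27.3% lower, beside 19.4% and 13.1% of all loci. At an unadjusted limma p under 0.05, 5 were higher and 6 lower, beside 27.6% and 16.9% of all loci. The mean of the 11 was -0.26 to 0.15 on labelled mutant arrays and -0.12 to 0.14 on wild-type arrays. Their summed intensity was 82478 to 101444 in labelled mutant and 86364 to 93896 in wild type, and none was at 0. Their part in the jasmonate values was not tested.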

How the data were processed

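Each deposited array file (single-colour NimbleGen) gives a linear intensity for every feature, which the authors made with RMA, per the submitters' processing notes. The version and settings of that step and the array's genome build were not given in the sources used here. Array medians lay between 3775.6 and 3909.2, and values between 95.7 and 53727. Columns of other samples numbered 0. The number of arrays limits the precision.

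Groups follow the labels. The log2 of the deposited intensities was fitted with limma 3.58.1 (R 4.3.3, lmFit, eBayes) over all 37118 features, with no filter and no covariate. Adjustment was by Benjamini-Hochberg at 0.05. The fit was also run on simulated data with independent arrays, which does not check error rates where arrays resemble each other. Symbols were matched by locus in a RefSeq table of assembly TAIR10.1, which holds all 39 genes. Members and lists were chosen with earlier results of these data known. Values on every array are given for up to 14 genes of lowest p past the threshold, for 1 gene of each role with none, and for genes of pairs past it; in the wider pathway list up to 4 higher and 4 lower genes are named. Other genes with such values were chosen after seeing them. Alternatives were other centrings and normalization, filters on dim features, other features, variance models, array weights, replicate blocks, averaged or omitted arrays and thresholds.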

Additional observations from a re-analysis of the deposited data

Results flagged for a closer look

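Among 78 groups of arrays tested (39 genes in both groups), 1 array stood far from the rest of its group. It was AOC4 on labelled mutant replicate 1, at a log2 intensity of 13.49, where the other labelled mutant arrays had 13.40 to 13.43. Chance marks about 1 group in 20 in this way.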

How the results depend on the processing

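In the fits without 1 array, 11 of the 15 higher and 2 of the 3 lower genes passed every time, and the number of higher genes was 11 to 15 and of lower genes 2 to 3. Of the other alternatives, array weights gave 18 higher (gaining JAZ2, JAZ9 and LOX2), median centring 16 (gaining JAZ2), and an adjusted p of 0.01 gave 10. Leaving out wild-type replicates 2 and 5 gave 17 higher and 2 lower. That gained JAZ9, LOX2, AOC1, AOC2 and JOX3 and lost JAZ12, MYC3, CYP94C1 and VSP1. Leaving out wild-type replicates 3 and 6 instead gave 11 higher and 3 lower, losing JAZ12, MYC3, CYP94C1 and JOX4. A second quantile normalization gave 13, losing JOX4 and VSP2, and 75th percentile centring 13, losing JAZ12 and MYC3. Requiring 1.5-fold left 4 higher and 0 lower. Averaging arrays whose numbers lie 3 apart joins wild-type replicates 2 and 5, and also 3 and 6, whose deviations correlated. It gave 10 higher and 2 lower, losing JAZ12, MYC3, CYP94C1, JOX4, VSP1 and VSP2. Calls over all features (12033) fell to 5680 without the dimmest 50% of features, 7174 with such arrays averaged, 6481 at an adjusted p of 0.01 and 3122 with 1.5-fold, settings that test fewer features, use fewer values or set stricter limits. Signs turned for JAZ1 (-0.10 averaged, -0.58 dimmer feature), JAZ4 (0.13, dimmest feature), DAD1 (-0.02 with a second quantile normalization, -0.04 without wild-type replicates 2 and 5, and -0.02 to 0.06 without 1 array), and AOC2 (-0.03 with the fixed replicate block, -0.10 without wild-type replicates 3 and 6, and -0.03 to 0.12 without 1 array). Without wild-type replicates 3 and 6, AOC1 stood at -0.04, COI1 at -0.01 and JAZ8 at -0.00. The cause was not tested. Pairs past the threshold numbered 2 to 5 without 1 array and 8 without wild-type replicates 2 and 5, where the smallest possible exact p is larger. Over all features, deviations of same-numbered arrays from their group means had correlations of -0.061 to 0.289. The numbers were not used as pairs in the main fit. Some members did vary by number in both groups, LOX2, LOX3, AOC1, JOX3 and JAZ9 among them. A fixed block of the number lowered the SE of LOX2 from 0.54 to 0.35. It raised that of JAZ1 from 0.057 to 0.069. With the replicate number as a fixed block 16 genes rose and 2 fell, gaining JAZ9, LOX2 and JOX3 and losing JAZ12, JOX4 and VSP1, and as a random block 16 rose and 3 fell. Dim features limit DAD1, JAZ8, JMT, JOX4 and VSP2.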
